A study of Mus musculus with 24 samples.

Results

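Expression of 9 genes of the IL-1, TNF and IL-6 cytokine families was followed in subcutaneous bone constructs: the IL-1 ligands Il1a and Il1b, their antagonist Il1rn, Tnf, and the IL-6 family ligands Il6, Il11, Lif, Osm and Clcf1. They are the 9 rows of the count table, of 51138 in all, that carry these symbols, and all 9 passed the filter on low counts. The transcripts of Il1b and Tnf were lower in constructs from toxin-treated mice than in MSC constructs from untreated mice, by 5.10-fold and 2.51-fold in the fitted model. Il1a and Il6 did not share that direction, and no member differed past the adjusted threshold among the constructs of untreated mice.

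Interleukin 1 alpha and beta signal through the same receptor, and the receptor antagonist encoded by Il1rn occupies that receptor without starting a signal. IL-1 beta is made as an inactive precursor that inflammasomes cleave, whereas the IL-1 alpha precursor is active as made and is released from damaged cells. TNF and IL-1 both act through NF-kB and both promote osteoclast formation. IL-6, IL-11, LIF, oncostatin M and cardiotrophin-like cytokine factor 1 signal through the shared receptor chain gp130 and STAT3, and in bone they act on osteoblasts and, through these, on osteoclasts.

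Every construct held 40 mg of biphasic calcium phosphate granules (BCP), a ceramic bone substitute. Hosts were Foxp3-DTR/eGFP mice, male and female, 8 to 9 weeks old. Under the Foxp3 gene they express a diphtheria toxin receptor and a green fluorescent protein in regulatory T cells (Treg). Each mouse carried 2 constructs of the same kind, and bulk RNA was sequenced at week 2 from 1 construct sample per mouse, with 4 mice in each of 6 groups. The groups were granules alone (BCP), granules with mesenchymal stromal cells grown from bone marrow (BCP+MSC), MSC primed with 10 nM resolvin E1, a lipid mediator of the resolution of inflammation (BCP+MSC+RvE1), and MSC kept with activated, sorted splenic Treg (BCP+MSC+Treg). The other 2 groups were BCP+MSC constructs in mice given 50 µg/kg diphtheria toxin, alone ((dep)BCP+MSC) or with daily local injections of 1 µM RvE1 ((dep)BCP+MSC+RvE1inj). The last 2 groups were a separate arm with no toxin control of its own, so toxin, Treg loss and arm cannot be told apart. No group injected without RvE1 is described, so RvE1 and the injection itself cannot be told apart either. A construct holds seeded and infiltrating host cells, and in such bulk RNA fewer cells of a type and less RNA per cell cannot be told apart.

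Promoter sequences are shown for 4 members that lay on opposite sides in the toxin-treated groups, Il1b and Tnf low and Il1a and Il6 not, so that the elements beside their start sites can be read. Each is the 250 bases before the annotated start in RefSeq on GRCm38.p6, 5′ to 3′ on the gene's strand, and capitals mark matches to any of 5 consensus motifs searched on both strands. The windows are chr2:129309973-129310222 for Il1a and chr2:129371140-129371389 for Il1b, both on the minus strand, chr17:35202008-35202257 for Tnf on the minus strand and chr5:30012864-30013113 for Il6 on the plus strand.
Il1a: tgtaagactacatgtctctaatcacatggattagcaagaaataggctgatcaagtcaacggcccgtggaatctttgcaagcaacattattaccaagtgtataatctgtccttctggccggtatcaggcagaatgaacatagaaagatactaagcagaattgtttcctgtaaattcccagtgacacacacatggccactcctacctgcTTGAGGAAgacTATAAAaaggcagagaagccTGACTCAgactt
Il1b: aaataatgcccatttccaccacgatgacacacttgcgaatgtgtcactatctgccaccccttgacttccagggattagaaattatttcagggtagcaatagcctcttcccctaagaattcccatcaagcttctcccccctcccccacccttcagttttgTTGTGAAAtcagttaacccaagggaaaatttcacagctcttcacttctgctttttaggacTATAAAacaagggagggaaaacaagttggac
Tnf: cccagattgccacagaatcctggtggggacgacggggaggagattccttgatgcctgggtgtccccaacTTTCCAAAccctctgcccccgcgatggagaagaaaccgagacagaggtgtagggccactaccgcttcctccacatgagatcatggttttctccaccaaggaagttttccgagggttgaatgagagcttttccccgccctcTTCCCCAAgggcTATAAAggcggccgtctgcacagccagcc
Il6: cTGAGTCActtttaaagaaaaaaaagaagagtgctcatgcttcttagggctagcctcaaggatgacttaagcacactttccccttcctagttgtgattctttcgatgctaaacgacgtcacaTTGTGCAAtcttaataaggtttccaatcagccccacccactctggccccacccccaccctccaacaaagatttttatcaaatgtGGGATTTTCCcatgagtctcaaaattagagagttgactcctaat

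The Il1a, Il1b and Tnf windows each hold the TATA box TATAAA, at positions -32, -31 and -29 from the start, a match that 12.4% of 32851 promoters of this length hold. The C/EBP consensus TTNCNNAA occurs in all 4 windows, and in 36.8% of all promoters. The AP-1 consensus TGANTCA (6.75% of promoters) occurs at -12 in Il1a and at -249 in Il6. Of these 4 windows, the NF-kB consensus (3.9% of promoters) is matched in that of Il6, at -44, and the STAT consensus TTCNNNGAA (7.02% of promoters) in none. No matches overlap in these windows. A match describes the letters in this window and says nothing of whether a factor binds. Promoter sequences were found for 7 of the 9 members, and for Osm and Clcf1 none was used here.

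Total counts ranged 17.0-fold, from 8482701 to 144417743 per sample, so 3 counts correspond to 0.354 CPM in the shallowest and 0.0208 CPM in the deepest sample. CPM (counts scaled to library totals) are given after TMM normalization. Floors cover counting error only, and the spread between mice is given as the SD. The 95% intervals of log2 differences come from the standard errors of the fitted model, which take in that spread. Foxp3, the target of the depletion, ran from 0.356 to 2.14 CPM in the 16 untreated samples and from 0.298 to 1.69 CPM in the 8 toxin-treated ones, with a log2 fold change of 0.06 (SE 0.33) between the toxin-treated and the untreated MSC groups. The paper reports fewer Treg after toxin by flow cytometry of lymph nodes and spleen. Scarce Foxp3 RNA in constructs is another measure in another tissue. The libraries of (dep)BCP+MSC replicates 1 and 2 stood apart: they had the lowest Il1b of all 24 samples, replicate 1 had 401 summed CPM of 8 keratinocyte and hair markers against at most 83.4 in the untreated samples, and replicate 2 had 7864 summed CPM of 6 adipocyte markers against at most 6165. Replicate 1 was also the shallowest library of all. Dixon's test, which looks for 1 outlying sample in a group, flagged 0 of 54 sets of 1 member in 1 group. Results on the toxin-treated groups are also given without replicates 1 and 2, a choice made after their values were seen. The other 2 libraries of (dep)BCP+MSC carry column numbers 4 and 5, which match no replicate number in the labels.

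Set per summed exon length of the gene, Il1b was the most abundant of the 9 members, with a mean of 49.3 CPM per kb over all samples, followed by Il1rn with 44.6. The summed exon length, 1907 bases for Il1b and 5535 for Il1rn, need not be that of the transcripts present. The order of these 2 depends on it, since without it Il1rn averaged 247 CPM and Il1b 94.1 CPM. By group, Il1rn was above Il1b in BCP+MSC (46.9 against 42.4 CPM per kb) and in both toxin-treated groups. Tnf and Osm followed at 12.4 and 12.2 CPM per kb, Clcf1 at 4.47, Il1a at 3.10 and Lif at 2.03. Il6 and Il11 were the scarcest, at 1.33 and 0.638 CPM per kb.

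**Figure D1:**
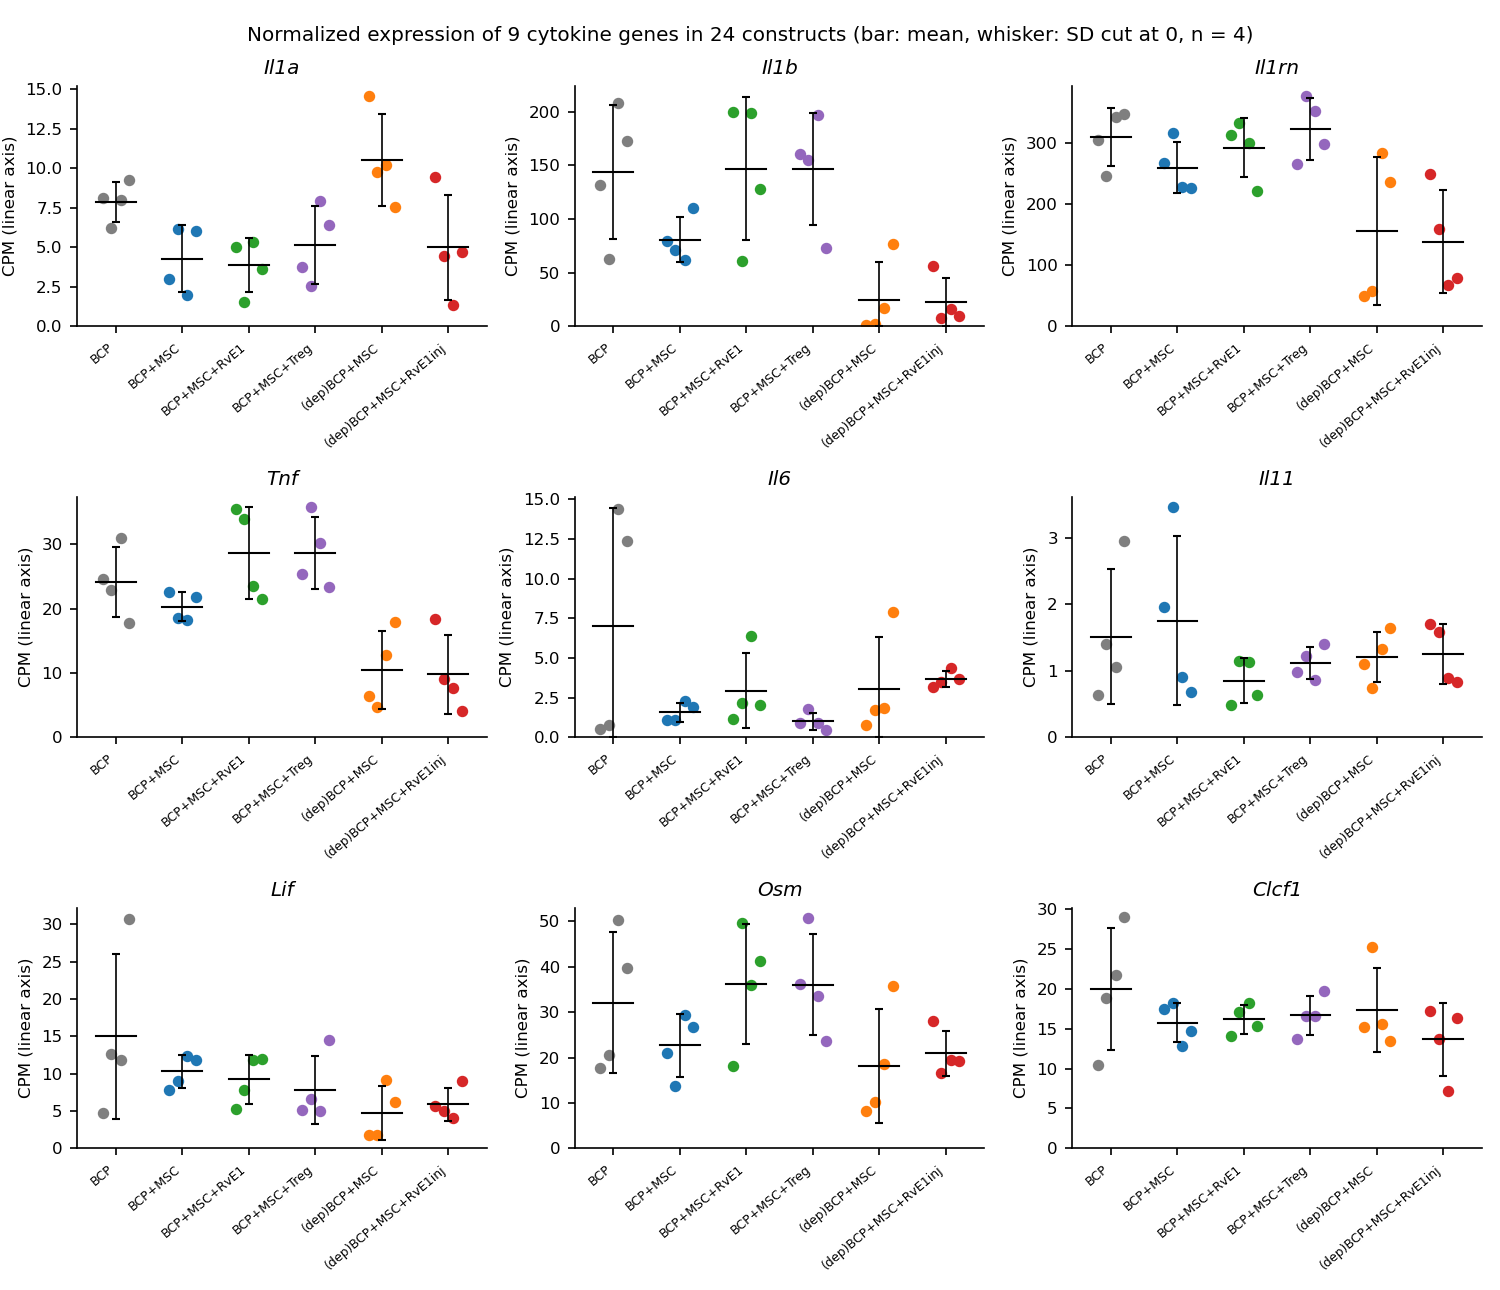
Normalized expression (CPM, linear axes from 0) of the 9 cytokine genes in each of the 6 groups, with 1 point per mouse, the bar at the mean and whiskers of 1 SD cut at 0 (n = 4). Il1b, Il1rn and Tnf sit lower in both toxin-treated groups on the right, Il6 is high in 2 BCP samples, and the group means of Clcf1 lie between 13.6 and 20.0 CPM.

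The gene Il1b (ENSMUSG00000027398.13, chromosome 2, 129364570 to 129371139, minus strand, GRCm38) encodes interleukin 1 beta. The BCP samples held 132, 62.3, 208 and 172 CPM and the BCP+MSC samples 79.9, 71.6, 61.5 and 111 CPM. In BCP+MSC+RvE1 it stood at 199.5, 61.0, 199 and 128 CPM, and in BCP+MSC+Treg at 160.4, 155, 196 and 72.9 CPM. No untreated sample was below 61.0 CPM, and their groups overlapped. In (dep)BCP+MSC the values were 1.69, 2.07, 17.3 and 76.6 CPM, from 17, 86, 1471 and 3647 counts, and in (dep)BCP+MSC+RvE1inj 56.4, 8.24, 16.0 and 9.48 CPM. Of the 8 toxin-treated samples, 7 lay below every sample of the 3 untreated MSC groups, and the exception was the (dep)BCP+MSC library of column 5. The means were 23.5 ± 27.7 CPM (SD, n = 8) and 125 ± 55.8 CPM (SD, n = 12), so the SD of the toxin-treated samples exceeded their mean. Il1b fell by 2.35 on the log2 scale (SE 0.60), with an adjusted p of 0.0133 in edgeR's quasi-likelihood test with Benjamini-Hochberg adjustment. An exact two-sided permutation test of mean log2 CPM, 3.55 against 6.82, gave p = 4.8e-05. Without (dep)BCP+MSC replicates 1 and 2 the fitted log2 difference was -1.86, with an edgeR adjusted p of 0.0297.

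Ordered by group mean, Il1b ran from BCP+MSC+RvE1 (147 CPM), BCP+MSC+Treg (146 CPM) and BCP (143.6 CPM) to BCP+MSC (80.9 CPM), (dep)BCP+MSC (24.4 CPM) and (dep)BCP+MSC+RvE1inj (22.5 CPM). No neighbours in this order differed beyond their spread, with exact permutation p-values from 0.0857 to 1 where 0.0286 is the smallest that 4 against 4 allows. Between the untreated groups, BCP+MSC+RvE1 exceeded BCP+MSC by 0.86 on the log2 scale (95% interval -0.80 to 2.52) and BCP+MSC+Treg exceeded it by 0.86 (-0.81 to 2.52). Those intervals span both signs, and their width leaves changes of several fold undetectable in these samples.

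Il1a (ENSMUSG00000027399.1, chromosome 2, 129299610 to 129309972, minus strand) lies near Il1b and encodes interleukin 1 alpha. Its values were 8.11, 6.21, 7.98 and 9.25 CPM in BCP alone, 2.97, 6.14, 1.97 and 6.04 CPM in BCP+MSC, 4.99, 1.56, 5.33 and 3.63 CPM in BCP+MSC+RvE1 and 3.76, 2.54, 7.94 and 6.41 CPM in BCP+MSC+Treg. Every BCP sample was above every BCP+MSC and BCP+MSC+RvE1 sample, comparisons in which 1.81% and 10.6% of all genes did not overlap. The (dep)BCP+MSC samples held 14.6, 9.78, 10.2 and 7.56 CPM, all above those of BCP+MSC, a comparison in which 9.15% of all genes did not overlap. Those of (dep)BCP+MSC+RvE1inj held 9.45, 4.47, 1.34 and 4.74 CPM and overlapped with both groups. Il1a was thus highest in the group in which Il1b spread down to its lowest values. The log2 difference of (dep)BCP+MSC from BCP+MSC was 1.29 (SE 0.47, edgeR adjusted p = 0.121), with an exact permutation p of 0.0286, the smallest possible. Over both toxin-treated groups it was 0.72 (SE 0.30, edgeR adjusted p = 0.107), so no Il1a difference passed the adjusted threshold in edgeR. Reads were counted on exons without regard to strand. The span of Il1a, introns included, overlaps that of Gm14023 on the opposite strand by 8217 bases, and that of Il1b overlaps Il1bos by 1243 bases. Overlap between exons was not measured, and whether transcripts of these partners alter the counts was not tested.

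Il1rn (ENSMUSG00000026981.15, chromosome 2, 24336853 to 24351494, plus strand), the receptor antagonist, varied little among untreated constructs, from 222 to 376 CPM over 16 samples. BCP+MSC held 268, 316, 228 and 227 CPM, (dep)BCP+MSC 48.9, 57.6, 284 and 236 CPM, and (dep)BCP+MSC+RvE1inj 249.9, 159, 67.1 and 78.4 CPM. Of the 8 toxin-treated samples, 3 reached the untreated range and 5 were below it. The means were 148 ± 97.2 CPM (SD, n = 8) against 292 ± 50.5 CPM (SD, n = 12) in the untreated MSC groups. The log2 difference of -0.98 (SE 0.29, edgeR adjusted p = 0.0249) passed the adjusted p and just missed the 2-fold limit, and the exact permutation p was 5.24e-04. Without (dep)BCP+MSC replicates 1 and 2 it was -0.59, with an edgeR adjusted p of 0.126.

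Tnf (ENSMUSG00000024401.14, chromosome 17, 35199381 to 35202007, minus strand), encoding tumour necrosis factor, held 24.7, 22.8, 31.0 and 17.8 CPM on granules alone. The BCP+MSC samples lay close together, at 22.5, 18.6, 18.3 and 21.9 CPM. The BCP+MSC+RvE1 samples held 35.5, 33.9, 23.6 and 21.5 CPM, and those of BCP+MSC+Treg 25.3, 35.7, 30.2 and 23.3 CPM. All Treg-bearing constructs were above all BCP+MSC constructs, by 0.50 on the log2 scale (95% interval -0.21 to 1.20), with an exact permutation p of 0.0286, while edgeR's unadjusted p was 0.180 and 1.05% of all genes did not overlap. In (dep)BCP+MSC the values were 6.48, 4.77, 12.8 and 17.9 CPM and in (dep)BCP+MSC+RvE1inj 18.3, 9.06, 7.69 and 4.03 CPM. The (dep)BCP+MSC samples did not overlap with BCP+MSC, as was so for 9.15% of all genes, and 1 injected sample reached the lower edge of BCP+MSC. Over both toxin-treated groups Tnf averaged 10.1 ± 5.62 CPM (SD, n = 8) against 25.9 ± 6.34 CPM (SD, n = 12) in the untreated MSC groups. Tnf fell by 1.33 on the log2 scale (SE 0.24), with an edgeR adjusted p of 6.99e-04 and an exact permutation p of 1.6e-05. Without (dep)BCP+MSC replicates 1 and 2 the difference was -1.04 (edgeR adjusted p = 0.0108).

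Il6 (ENSMUSG00000025746.11, chromosome 5, 30013114 to 30019981, plus strand) was scarce, and its BCP samples fell into a low and a high pair, at 0.525, 0.749, 14.4 and 12.4 CPM. BCP+MSC held 1.06, 1.07, 2.27 and 1.93 CPM, BCP+MSC+RvE1 1.17, 2.17, 6.41 and 2.06 CPM and BCP+MSC+Treg 0.893, 1.78, 0.925 and 0.493 CPM. The 12 untreated MSC samples lay between the pairs of BCP samples or at the level of the lower pair. In the fit Il6 was 2.05 lower on the log2 scale in the 3 MSC groups than in BCP (SE 0.59, edgeR adjusted p = 0.346). The exact permutation test of mean log2 CPM, 0.62 against 1.58, gave p = 0.263. The (dep)BCP+MSC samples held 0.798, 1.73, 1.88 and 7.87 CPM, and the (dep)BCP+MSC+RvE1inj samples 3.15, 3.47, 4.40 and 3.67 CPM. All 4 injected samples were above all 4 BCP+MSC samples (exact permutation p = 0.0286), a comparison in which 7.21% of all genes did not overlap. The fitted log2 difference was 1.21 (95% interval -0.37 to 2.78, edgeR adjusted p = 0.527). Over both toxin-treated groups Il6 averaged 3.37 ± 2.17 CPM (SD, n = 8) against 1.85 ± 1.55 CPM (SD, n = 12), a log2 difference of 0.99 (SE 0.51, edgeR adjusted p = 0.203).

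Osm (ENSMUSG00000058755.3, chromosome 11, 4236420 to 4241026, plus strand) and Lif (ENSMUSG00000034394.14, chromosome 11, 4257557 to 4272514, plus strand) are neighbouring genes for gp130 ligands. Osm held 17.8, 20.5, 50.4 and 39.7 CPM in BCP alone, 21.1, 13.8, 29.4 and 26.6 CPM in BCP+MSC, 18.1, 49.5, 36.0 and 41.2 CPM in BCP+MSC+RvE1 and 36.3, 50.7, 33.6 and 23.6 CPM in BCP+MSC+Treg. In the toxin-treated groups it held 8.27, 10.2, 18.6 and 35.7 CPM without and 28.1, 16.6, 19.6 and 19.2 CPM with injected RvE1. Of these 8 samples, (dep)BCP+MSC replicates 1 and 2 lay below every untreated sample and the others within the untreated range, with a log2 difference of -0.66 (SE 0.27, edgeR adjusted p = 0.0991). Lif held 4.78, 12.6, 11.9 and 30.7 CPM in BCP alone, 7.88, 9.04, 12.4 and 11.9 CPM in BCP+MSC, 5.26, 7.82, 11.9 and 12.0 CPM in BCP+MSC+RvE1 and 5.16, 6.67, 4.99 and 14.5 CPM in BCP+MSC+Treg. The toxin-treated groups held 1.79, 1.85, 9.13 and 6.26 CPM without and 5.63, 4.94, 4.03 and 9.06 CPM with the injection, a log2 difference of -0.76 (SE 0.34, edgeR adjusted p = 0.136). The Lif and Osm differences were smaller without (dep)BCP+MSC replicates 1 and 2, at -0.40 and -0.36, with edgeR adjusted p-values of 0.542 and 0.483.

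Il11 (ENSMUSG00000004371.14, chromosome 7, 4772373 to 4782857, minus strand) and Clcf1 (ENSMUSG00000040663.8, chromosome 19, 4214238 to 4223490, plus strand) showed no such shift. Il11 ran from 0.490 to 3.46 CPM over the 24 samples, and the toxin-treated groups differed from the untreated MSC groups by 0.07 on the log2 scale (95% interval -0.57 to 0.71). Its group means ran from 0.852 ± 0.337 CPM in BCP+MSC+RvE1 to 1.76 ± 1.27 CPM in BCP+MSC (SD, n = 4 each). Clcf1 ran from 7.24 to 29.0 CPM, with group means from 13.6 ± 4.52 CPM in (dep)BCP+MSC+RvE1inj to 20.0 ± 7.66 CPM in BCP (SD, n = 4 each). The interval of its toxin difference was the narrowest of the 9, from -0.42 to 0.28 on the log2 scale around -0.07. The span of Clcf1, introns included, overlaps Gm26115 on the opposite strand by 87 bases.

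In all, 12 comparisons were fitted over all genes with edgeR, and a gene passed the unadjusted rule with p under 0.05 and a change of over 2-fold and the adjusted rule with an adjusted p under 0.05 and the same fold. They set MSC against the ceramic, each priming against unprimed MSC, and the toxin-treated and RvE1-injected groups against others, within the limits of the design given above. Comparisons that share a control group are not independent. BCP+MSC against BCP called Il6 by the unadjusted rule (log2 difference -2.15, SE 0.82), where 4.32% of all genes passed. Xist was above the summed Y-linked genes in 1 of 4 BCP and 3 of 4 BCP+MSC samples, and with a covariate for this the Il6 difference was -1.10 and not called. The counts were 0 and 1 of 4 in BCP+MSC+RvE1 and BCP+MSC+Treg, and 2 and 0 of 4 in the toxin-treated groups without and with injected RvE1. BCP+MSC+RvE1 against BCP called Il1a (-1.01, SE 0.47), where 8.54% passed. BCP+MSC+Treg against BCP called Il6 (-2.75, SE 0.84), where 5.85% passed, and the 3 MSC groups together against BCP called Il6 again, where 7.51% passed. In these 4 comparisons 0% of all genes passed the adjusted rule, and 1, 1, 1 and 2 members had an unadjusted p under 0.05 at any fold. BCP+MSC+RvE1 against BCP+MSC called Il11 (-1.06, SE 0.51, exact permutation p = 0.229), where 2.5% of genes passed. BCP+MSC+Treg called 0 members against BCP+MSC and 0 against BCP+MSC+RvE1, where 2.56% and 2.22% passed and 0 members had an unadjusted p under 0.05. The adjusted rule again called 0% of all genes in these 3 comparisons. DESeq2 called 0 members by the adjusted rule in all 7 comparisons of untreated groups.

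(dep)BCP+MSC against BCP+MSC called 2 members by the unadjusted rule, Il1a (1.29) and Lif (-1.09, SE 0.51), where 13.2% of all genes passed. The adjusted rule called 0 members and 3.14% of all genes in edgeR, and DESeq2 called 1 member, Il1a. Il1b (-1.72, SE 0.87) and Tnf (-0.95, SE 0.36) passed neither rule in edgeR, with adjusted p-values of 0.272 and 0.141. Neither Il1a (1.07) nor Lif (-0.41) passed the unadjusted rule without (dep)BCP+MSC replicates 1 and 2. Injected RvE1, (dep)BCP+MSC+RvE1inj against (dep)BCP+MSC, called Il1a (-1.05, SE 0.47, edgeR adjusted p = 0.668), where 5.13% of genes passed the unadjusted and 0% the adjusted rule. That Il1a difference was -0.79 and no longer called without the same libraries. (dep)BCP+MSC+RvE1inj against BCP+MSC called Il1b (-1.84, SE 0.87) and Tnf (-1.04, SE 0.36), where 9.45% passed the unadjusted rule, and the adjusted rule called 0 members and 0.661% of genes. DESeq2 called 0 members by the adjusted rule in both comparisons with the injected group. Non-overlap of the groups was seen for Il1a and Tnf in the first of these comparisons and for Il1b and Il6 in the last, where 9.15% and 7.21% of all genes did not overlap.

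The comparison of both toxin-treated groups with the 3 untreated MSC groups called Il1b and Tnf, 2 of 9 members, by both rules. Over all genes 15.2% passed the unadjusted and 7.86% the adjusted rule, and 3.28% passed the adjusted rule downward as both members did. The median log2 difference was -0.66 over the 9 members and -0.03 over all genes tested. In none of the 9 did the 8 and 12 samples separate without overlap, which 1.25% of all genes did. Whether injected RvE1 in toxin-treated hosts acted differently from RvE1 priming in untreated hosts was tested as an interaction, where 3.99% of all genes passed the unadjusted and 0% the adjusted rule. No member was called by either rule in edgeR or in DESeq2, and 0 had an unadjusted p under 0.05. The interval for Il1b ran from -3.32 to 1.36 on the log2 scale around -0.98. The unadjusted rule, without (dep)BCP+MSC replicates 1 and 2, called Il1b (-1.91), Il1rn (-1.07) and Tnf (-1.13). With a replicate block, which keeps only these 2 libraries of their group, it called Il1b (2.46), Il1rn (1.31) and Lif (1.54), so the sign of the Il1b and Il1rn values depended on which (dep)BCP+MSC libraries were in the fit. Without the library of column 5 alone the Il1b value was 0.77.

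**Figure D2:**
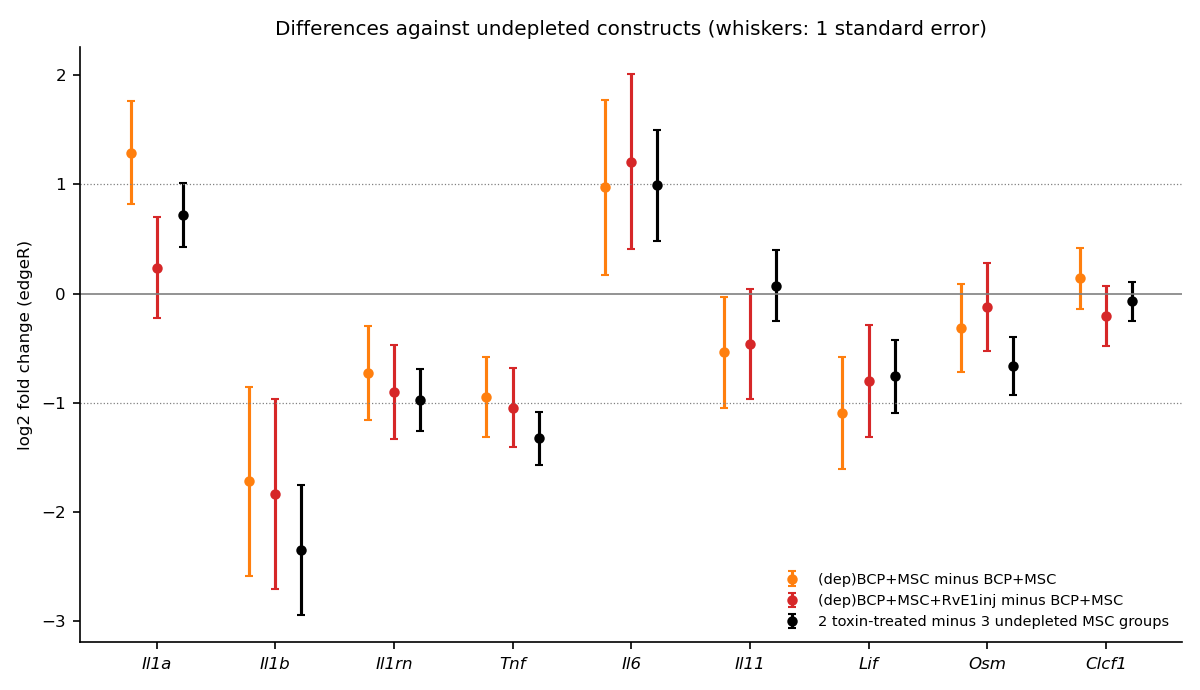
Log2 fold changes (edgeR) of the 9 genes in the toxin-treated groups against untreated MSC constructs, with whiskers of 1 standard error. Il1b (-2.35) and Tnf (-1.33) lie farthest below 0 in the comparison of all 8 against 12 samples, and Il1a (0.72) and Il6 (0.99) lie above it.

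Ratios between members within a library do not depend on the scaling of that library. They were chosen after the values were seen and are described without a test, in counts per kb. Il1b exceeded Il1a in every untreated MSC sample, with a median ratio of 34.4 (range 11.8 to 63.3), and the toxin-treated samples had a median of 1.99 (0.121 to 12.4). Il1rn to Il1b, the antagonist to its agonist, had a median of 0.772 (0.521 to 1.88) in the untreated MSC groups and 4.25 (1.06 to 9.95) in the toxin-treated ones. Where this ratio crosses 1 depends on the summed exon lengths used. Per summed exon length the antagonist exceeded Il1b in all 8 toxin-treated samples. It also did so in some untreated ones, and BCP+MSC had a median of 1.22 (0.708 to 1.52). The highest values, 9.95 and 9.58, were those of (dep)BCP+MSC replicates 1 and 2. These libraries also had the lowest ratios of Il1b to Il1a, at 0.121 and 0.219. Il6 to Tnf had medians of 0.0362 (0.0143 to 0.184) and 0.252 (0.0831 to 0.615). The BCP samples spread from 0.0144 to 0.470 in this last ratio.

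**Figure D3:**
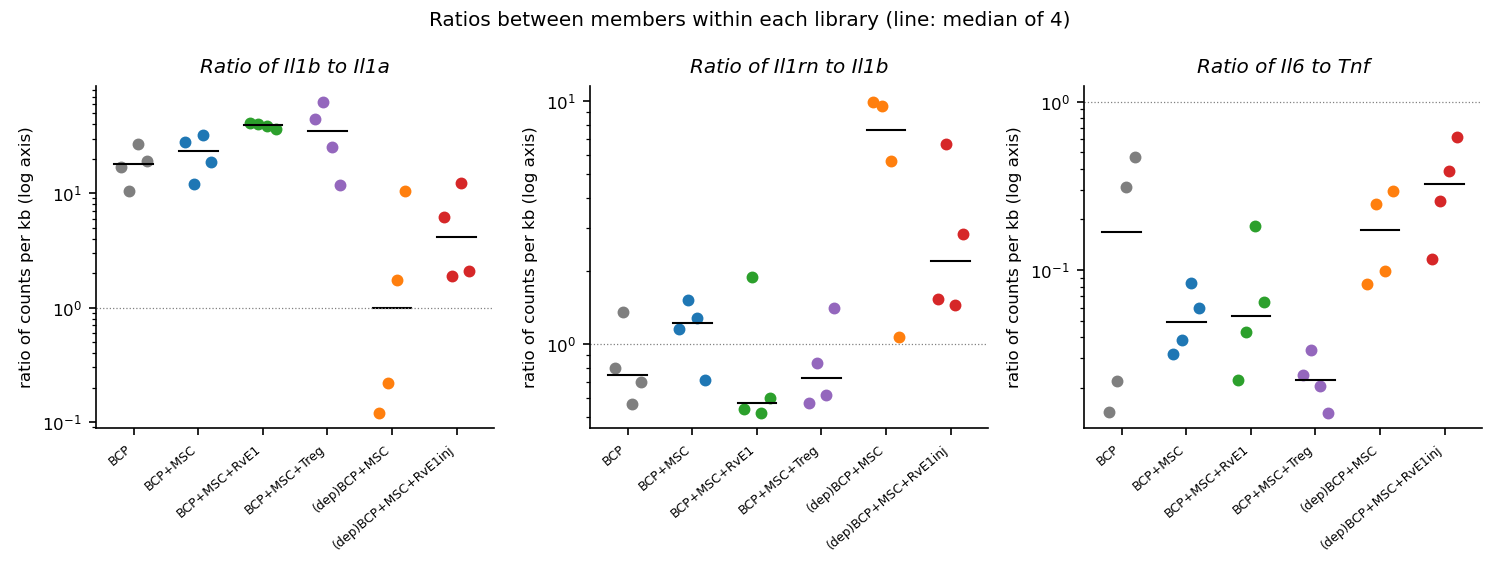
Ratios of counts per kb within each library (log axes), with 1 point per sample by group and a line at the median of 4. Il1b to Il1a is at or below 12.4 in all toxin-treated samples and at or above 10.4 in all untreated ones. Il1rn to Il1b is above 1 in every toxin-treated sample and in some untreated ones.

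Over the 24 samples the members fell into pairs that varied together and members that did not, given here as Pearson's r of log2 CPM, a description over libraries that share groups and depth. The highest values joined Il1rn with Tnf (0.90), Il1b with Tnf (0.89) and Il1b with Il1rn (0.88), followed by Il1b with Osm (0.75). Within the 16 untreated samples the same pairs were at 0.54, 0.38, 0.43 and 0.35, so much of their likeness went with the toxin-treated libraries. Among the untreated samples the highest pairs were Lif with Clcf1 (0.71) and Il11 with Clcf1 (0.69), and Tnf with Lif was at -0.61. Il1a was at -0.18 with Il1b and -0.06 with Il1rn over the 24 samples, and at 0.45 and 0.22 in the untreated ones, where its value with Il1b was as high as that of Il1b with Il1rn.

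**Figure D4:**
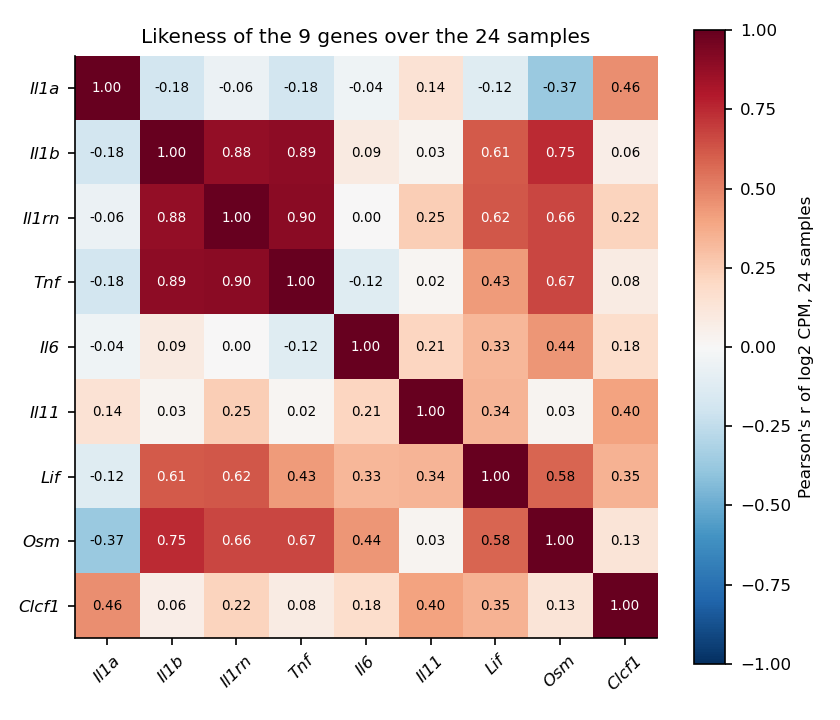
Pearson's r of log2 CPM between the 9 genes over 24 samples, as a colour scale with the value in each cell. Il1b, Il1rn and Tnf form a block at 0.88 to 0.90, and Il1a is negative or near 0 with Il1b, Il1rn and Tnf.

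Among 14774 symbol-named genes with a mean of at least 1 CPM, the transcripts most like each member over the 24 samples, again by r and without a test, differed between members. Il1b was closest to Acod1, the enzyme of itaconate synthesis in activated macrophages (r = 0.96, and 0.78 in the 16 untreated samples), then to Lmnb1 (0.94, untreated 0.63) and Pilrb2 (0.94, untreated 0.51). Il1rn was closest to Gsap (0.96), Csf3r, the G-CSF receptor of neutrophils (0.94), and Acod1 (0.94), which were at 0.57, 0.65 and 0.49 in the untreated samples. Tnf was closest to Gm13657 (0.93), Il36g (0.92) and 4833407H14Rik (0.92), at 0.49, 0.35 and 0.80 in the untreated samples. Il1a had other neighbours, the activin receptor gene Acvr2a (0.93), Dhx40 (0.93) and Snw1 (0.92), and these held at 0.92 to 0.95 in the untreated samples. Osm was closest to the neutrophil chemokine gene Cxcl5 (0.87), Dusp5 (0.86) and Snapc1 (0.86), and Lif to Kctd11 (0.90), Bmp2 (0.89) and the proliferation marker Mki67 (0.87), and in the untreated samples these 6 values lay between 0.72 and 0.90. The neighbours of the scarcer members were less close, with Ccn1 (0.77), P2ry10 (0.76) and Stk17b (0.75) for Il6, Itga5 (0.76), Emilin2 (0.74) and Havcr2 (0.74) for Il11, and Psme3 (0.80), 1700071M16Rik (0.78) and Ccnl1 (0.77) for Clcf1, and lay between 0.53 and 0.91 in the untreated samples.

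The other genes of these pathways were read from 6 lists in the comparison of the toxin-treated with the untreated MSC groups, by the adjusted rule in edgeR. Of 12 tested IL-1 family ligands, receptors and inhibitors (15 listed), 1 was higher and 1 lower, with a list median of -0.05 on the log2 scale. Il36g, an IL-1 family ligand of epithelia and myeloid cells, fell by 3.01 (SE 0.56), from 22.2 to 2.62 CPM, and Il18bp, the binding protein that neutralizes IL-18, rose by 1.06 (SE 0.18), from 11.1 to 23.1 CPM. Of 10 inflammasome genes, Nlrp3, the sensor that starts IL-1 beta cleavage, was the 1 called, and fell by 1.17 (SE 0.30), from 15.8 to 7.02 CPM (list median -0.21). Of 17 TNF superfamily genes, Tnfsf12, which encodes TWEAK, was the 1 called, and fell by 1.08 (SE 0.26), from 75.2 to 36.4 CPM (list median -0.03).

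Of 18 tested IL-6 family ligands and receptors (19 listed), 0 rose and 2 fell, with a list median of -0.17. Ebi3, a subunit of IL-27, fell by 1.12 (SE 0.23), from 12.1 to 5.54 CPM, and Il11ra1, the receptor of IL-11, fell by 1.05 (SE 0.23), from 345 to 168 CPM. Among the receptors that missed the fold limit, named after their values were seen, the IL-6 receptor gene Il6ra was at 145 against 78.7 CPM (log2 difference 0.88, SE 0.13) and the LIF receptor gene Lifr at 77.0 against 47.0 CPM (0.71, SE 0.14). Of 16 STAT3 response genes 3 rose and 1 fell, with a list median of 0.31. Lcn2, the siderophore-binding lipocalin that neutrophil granules also carry, rose by 2.56 (SE 0.51), from 14.3 to 85.3 CPM. Mt2, a metallothionein gene, rose by 1.69 (SE 0.52), from 50.9 to 162 CPM, and the protease inhibitor gene Serpina3n by 1.21 (SE 0.31), from 197 to 462 CPM. Timp1, an inhibitor of metalloproteinases, fell by 1.73 (SE 0.48), from 909 to 280.3 CPM.

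Of 20 NF-kB response genes 0 rose and 3 fell, with a list median of -0.32. They were the neutrophil chemokine genes Cxcl2, which fell by 2.02 (SE 0.41), from 104 to 24.8 CPM, and Cxcl5, which fell by 1.21 (SE 0.33), from 65.2 to 27.2 CPM, and the prostaglandin synthase gene Ptgs2, which fell by 1.48 (SE 0.45), from 18.9 to 6.72 CPM. Over all 6 lists 4 genes rose and 9 fell, where 7.86% of all genes were called, and the list medians lay on both sides of that of all genes (-0.03). Without (dep)BCP+MSC replicates 1 and 2 the calls were Il18bp (1.15), Il18r1 (1.16) and Lcn2 (2.23) upward and Il36g (-2.60), Cxcl2 (-1.72) and Ccl20 (-5.12) downward, and 0 genes of the inflammasome, TNF superfamily and IL-6 family lists passed. In the 7 comparisons among untreated groups 0 genes of the 6 lists passed the adjusted rule in edgeR. By the unadjusted rule the most calls were among the STAT3 response genes in BCP+MSC+RvE1 against BCP, with 5 of 16 higher, where 8.54% of all genes passed in either direction, and a list median of 0.56 against 0.03 over all genes.

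**Figure D5:**
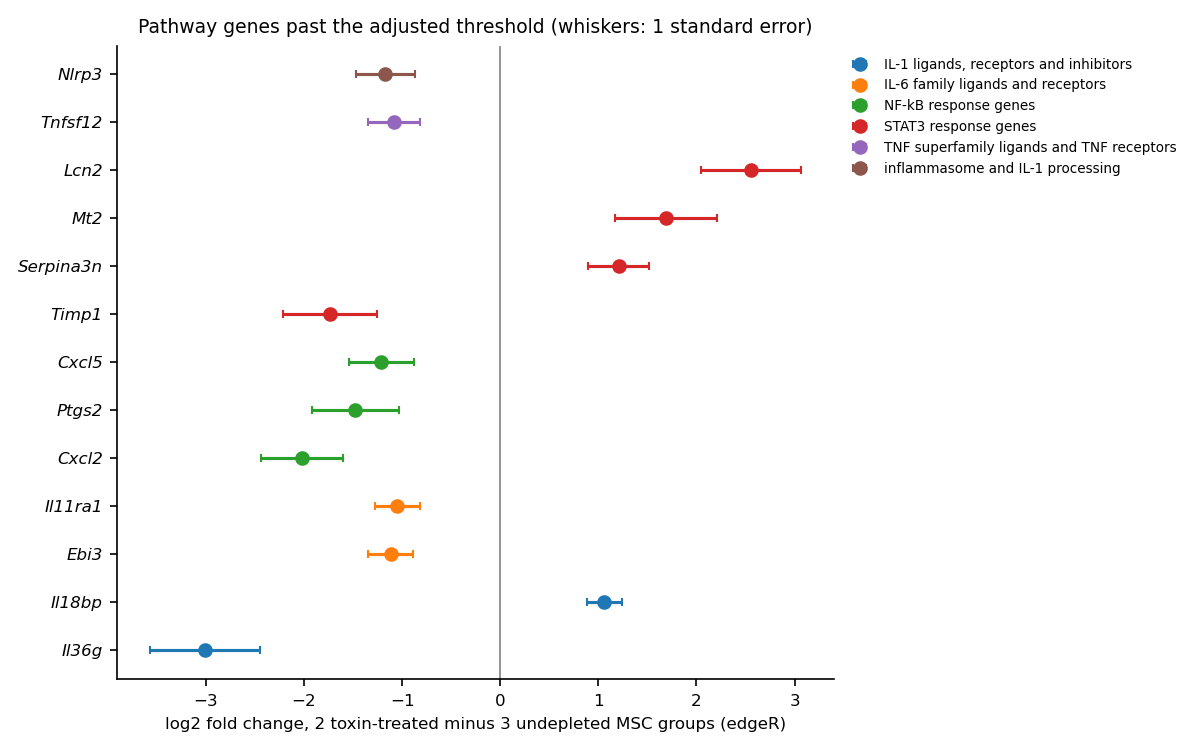
Log2 fold changes (edgeR) of the 13 pathway genes past the adjusted threshold, toxin-treated against untreated MSC groups, with whiskers of 1 standard error and 1 colour per list. Il36g (-3.01) and Cxcl2 (-2.02) lie farthest to the left and Lcn2 (2.56) farthest to the right.

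Markers of cell types that make these cytokines moved between the same groups. Of 10 neutrophil markers 4 rose (the granule genes Mmp8, Camp, Ltf and Ngp) and 3 fell (Cxcr2, S100a8 and S100a9), and Csf3r was lower by 0.82 on the log2 scale, below the fold limit. Without (dep)BCP+MSC replicates 1 and 2, 4 rose and 1 fell. Their summed level, which the abundant markers dominate, ran from 269 to 1114 CPM in the untreated MSC groups. It ran from 110.3 to 654 CPM in (dep)BCP+MSC and from 157 to 466 CPM in (dep)BCP+MSC+RvE1inj. Averaged as log2 CPM, where each of the 10 markers counts alike, these toxin-treated groups stood at 3.45 and 3.37. The untreated MSC groups stood between 2.67 and 3.52 in that measure, so neither toxin-treated group was below their range. Of 12 monocyte and macrophage markers 0 passed the adjusted rule in edgeR. Their summed level ran from 7468 to 12152 CPM in the untreated MSC groups against 4602 to 8476 and 5396 to 10033 CPM in the toxin-treated ones. Their mean log2 CPM was 7.88 (SD 0.66, n = 4) in (dep)BCP+MSC and 8.30 (SD 0.39, n = 4) in the injected group. It lay between 8.35 and 8.45 in the untreated MSC groups. Lyz2, a macrophage and granulocyte lysozyme, was lower by 0.95 (edgeR adjusted p = 0.0119), below the fold limit, where the list median was -0.13 on the log2 scale. Without (dep)BCP+MSC replicates 1 and 2 Lyz2 was at -0.86 (edgeR adjusted p = 0.0953) and the list median at 0.13. Of 8 T cell markers 6 rose, of 6 mast cell markers 2 rose, and of 8 fibroblast markers 5 fell, where 7.86% of all genes were called. These counts were 6, 1 and 2 without (dep)BCP+MSC replicates 1 and 2. The lists for B and plasma, endothelial and fat cells had 0 calls of 6 genes each, those for osteoblasts 2 lower of 7, for keratinocytes and hair 1 higher of 8 and for skeletal muscle 1 lower of 8. Without those replicates 2 endothelial markers fell, Cdh5 (-1.04) and Kdr (-1.25), the osteoblast count stayed at 2, and the keratinocyte and muscle counts were 0. The part of these cell type levels in the Il1b, Il1rn and Tnf differences was not tested.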

How the data were processed

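RNA of 24 constructs, 1 sample per mouse, was sequenced from stranded mRNA libraries. The authors aligned paired reads with HISAT2 2.0.5 and counted them per gene on exons with featureCounts 1.5.2 and GENCODE M13, with no strand option in the recorded command. The deposited values are these raw counts, without normalization. Groups came from the sample labels and the study's methods.

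The 30564 genes whose counts summed to 10 or more were fitted in 1 quasi-likelihood model of 6 groups with edgeR 4.0.16 (TMM, robust) in R 4.3.3, with Benjamini-Hochberg adjustment over all genes tested. The permutation tests took the difference in mean log2 CPM (prior count of 2) between the pooled samples of each side. Their p-values therefore belong to that difference and not to the fitted one. The members and lists were chosen with earlier results of these data known. The genes named are the 9 members, up to 6 genes of each list past the adjusted rule, and the 3 genes most like each member. Of 182 list genes, 3 were matched by an older symbol and 1 was not matched. Alternatives were DESeq2 1.42.0, other normalizations and filters, covariates, a replicate block and leaving out libraries. On simulated counts of 29707 genes for the toxin comparison, edgeR called 89 of 100 genes changed by 1.5 on the log2 scale, 97 of 100 changed by 3, and 5 unchanged ones. The changed genes had a mean of at least 1 CPM, and each gene had the same spread setting in all groups. In the data the spread differed, with an SD of Il1b log2 CPM of 2.61 in (dep)BCP+MSC and 0.358 in BCP+MSC, which the simulation does not cover.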

Additional observations from a re-analysis of the deposited data

How the results depend on the processing

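The Il1b and Tnf calls in the toxin comparison held in 20 fits that left out 1 library each (Il1b -3.23 to -2.16, Tnf -1.56 to -1.20 on the log2 scale) and in 10 other settings (-4.18 to -1.86 and -1.93 to -1.04). A covariate for sex-linked genes and the fit without (dep)BCP+MSC replicates 1 and 2 were chosen after seeing the data. The replicate numbers do not pair the samples: deviations of same-numbered samples had a mean r of 0.0138 over 50 pairs (-0.62 to 0.62), against -0.00587 over 150 other pairs. The fit with the replicate block leaves out the (dep)BCP+MSC libraries of columns 4 and 5 by construction. Of 108 differences, 19 had an unadjusted p under 0.05, and 0 of these changed sign under any setting, as 50 of the others did. In the permutation tests, 13 of 99 were under 0.05 with a prior count of 2 and 13 with 0.5. The causes of the following changes were not tested.

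By the unadjusted rule, the members called in BCP+MSC against BCP went from 1 to 0 with the sex covariate and in a fit of only the groups compared. BCP+MSC+RvE1 against BCP went from 1 to 0 in that fit and with libraries thinned to the shallowest total, where BCP+MSC+Treg against BCP went from 1 to 2. BCP+MSC+RvE1 against BCP+MSC went from 1 to 0 with RLE normalization, filterByExpr, no filter, the replicate block, thinning, only the groups compared, and without (dep)BCP+MSC replicates 1 and 2. BCP+MSC+Treg went from 0 to 1 against BCP+MSC with the sex covariate (Lif), and from 0 to 1 against BCP+MSC+RvE1 with DESeq2 and with only the groups compared (Il6). (dep)BCP+MSC against BCP+MSC went from 2 to 1 with filterByExpr, 6 with the block, 5 with the sex covariate and 0 without replicates 1 and 2. (dep)BCP+MSC+RvE1inj went from 1 to 5 with the block and 0 without those replicates against (dep)BCP+MSC, and from 2 to 1 with no filter, 0 with a depth covariate and 4 with the sex covariate against BCP+MSC. The toxin comparison went from 2 to 5 with the block and 4 with the sex covariate, and the interaction from 0 to 3 with the block and 3 without replicates 1 and 2.

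By the adjusted rule, (dep)BCP+MSC against BCP+MSC went from 0 to 4 with the block, 1 with DESeq2 (Il1a) and 1 with the sex covariate (Lif). Injected RvE1 went from 0 to 1 with the block (Il1b), and the toxin comparison from 2 to 5 with the block and 4 with the sex covariate.

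With 1 library left out, unadjusted calls ranged from 0 to 2 (BCP+MSC against BCP, BCP+MSC+RvE1 against BCP, injected RvE1, and the interaction), 1 to 2 (BCP+MSC+Treg and the 3 MSC groups, each against BCP), 0 to 1 (BCP+MSC+RvE1 against BCP+MSC), 1 to 4 ((dep)BCP+MSC against BCP+MSC), 0 to 3 ((dep)BCP+MSC+RvE1inj against BCP+MSC) and 2 to 3 (the toxin comparison). Adjusted calls ranged from 0 to 2, 0 to 1 and 2 to 3 in the last 3, and stayed at 0 in the other 9. Unadjusted calls were lost without these libraries: Il6 in BCP+MSC against BCP without BCP replicate 3 or 4, Il1a in BCP+MSC+RvE1 against BCP without BCP replicate 1, 3 or 4 or BCP+MSC+RvE1 replicate 2 or 4, and Il11 in BCP+MSC+RvE1 against BCP+MSC without replicate 1 or 2 of BCP+MSC or 1 or 4 of BCP+MSC+RvE1. Likewise Lif in (dep)BCP+MSC against BCP+MSC was lost without (dep)BCP+MSC replicate 1 or 2 or BCP+MSC replicate 2, 3 or 4, Il1a under injected RvE1 without (dep)BCP+MSC replicate 1 or column 4 or (dep)BCP+MSC+RvE1inj replicate 2, 3 or 4, and Tnf in (dep)BCP+MSC+RvE1inj against BCP+MSC without BCP+MSC replicate 1 or injected replicate 3 or 4, where Il1b was lost without any of these or BCP+MSC replicate 2, 3 or 4 or injected replicate 2. Adjusted calls were gained for Il1b and Tnf in (dep)BCP+MSC against BCP+MSC without column 5, and for Tnf in (dep)BCP+MSC+RvE1inj against BCP+MSC without injected replicate 1. Over all genes, adjusted calls went from 2403 to 1073 in the toxin comparison without (dep)BCP+MSC replicates 1 and 2, from 959 to 43 in (dep)BCP+MSC against BCP+MSC there, to 157 with only the groups compared, 1842 with DESeq2 and 2149 with the block, and from 202 to 335, 40 and 852 in (dep)BCP+MSC+RvE1inj against BCP+MSC under the first 3 of these and 459 with the sex covariate. Where edgeR called 0 genes by the adjusted rule, DESeq2 called between 0 (BCP+MSC+Treg against BCP+MSC) and 98, and the block 332 for injected RvE1 and 30 for the interaction. Unadjusted counts fell by over 1.5 times with filterByExpr in 9 comparisons, in the toxin comparison from 4638 to 2934.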
